A study of Rattus norvegicus with 23 samples.

Results

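Acute-phase genes were examined in the lungs of elderly rats that had inhaled a nanostructured titanium dioxide (TiO2) aerosol. The 10 genes were Orm1, Saal1, Lcn2, Hp, Hpx, Cp, Lbp, Itih4, Serpina3n and A2m, out of 23011 genes tested, and all 10 were measured. They were chosen from earlier results of these arrays, because Orm1, Saal1 and Lcn2 were much higher after exposure. Their differences between exposed and control lungs are therefore given as a description, with no test.

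Male F344 rats, 19 months old, breathed either filtered air (controls) or TiO2 P25 at 10 mg/m3 through the nose, 6 h a day and 5 days a week for 4 weeks. RNA of the accessory lung lobe was taken on the last day of exposure (D0) or 28 days later (D28) and hybridized, 1 rat per array, to a single-colour rat expression array. The arrays were 6 control and 5 exposed on D0, and 6 control and 6 exposed on D28, which makes 23. The labels carry no genetic change in any group, and all rats were restrained for nose-only breathing. The source label of the exposed D28 arrays reads day 0, whereas their titles and descriptions give day 28, which was used.

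Acute-phase proteins are secreted proteins whose blood levels change within hours to days of injury or infection. Most come from hepatocytes, where interleukin 6 acts through STAT3 and interleukin 1 and TNF act through NF-kB and C/EBP factors, and epithelial cells and macrophages of the lung can also make several of them. Positive members include carriers of lipids and small ligands, proteins that capture haemoglobin, haem or iron, and inhibitors of proteases. The arrays measured mRNA, not protein. In whole lobe RNA, a change in the number of cells that make an mRNA and a change in the amount per cell cannot be told apart.

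The 75th percentile of the processed signal ranged from 1383 to 3470 across arrays before normalization, and 69.5% to 77.9% of spots were well above background. The arrays lay on 5 slides. One slide held a single array, control D28 replicate 4, which was also the only array read with the later software version. Values below are log2 normalized signals, which compare arrays for 1 gene and not genes with each other. Of the 10 genes, 9 were well above background on every array, and Orm1 missed this on 1 array, control D28 replicate 6. Exposed D0 replicate 4 and exposed D28 replicate 4 stood apart from their groups in several of the 10 genes. Control D28 replicate 6 did so in Orm1 and was also the lowest D28 control in others of the 10.

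On D0 the mean of all 10 genes was higher in exposed than in control lungs. Of these, 8 passed both DEG thresholds used in the study's methods (a fold change (FC) of at least 1.5 and an adjusted p below 0.05): all but Cp and Lbp. Over all genes tested, 1.1% were called higher in this contrast. Since the genes were chosen by their difference after exposure, nothing is read from this count, nor from the counts and medians of either day that follow. In 7 of the 10, every exposed array lay above every control array, where 1.94% of all genes did so. On D28 the 10 means were again all higher, and 3 genes (Orm1, Saal1 and Hp) passed both thresholds, against 0.487% of all genes called higher. The same 3 had every exposed array above every control array, against 0.678% of all genes. The median log2 FC of the 10 genes was 0.93 on D0 and 0.61 on D28 (over all genes, -0.00079 and -0.0055), and the 10 include the 3 genes that the choice was made on.

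**Figure D1:**
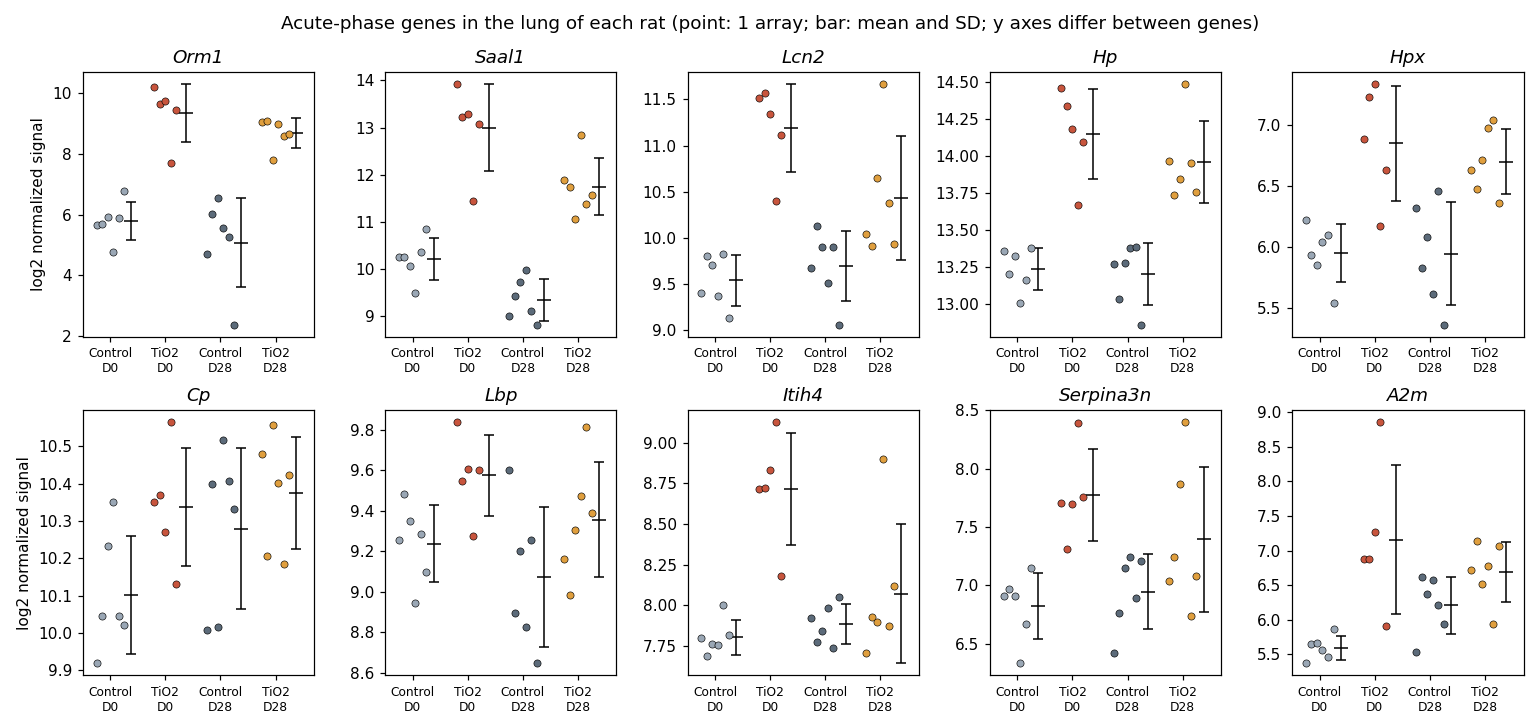
Log2 normalized signal (y axis, a separate scale for each gene) of the 10 acute-phase genes in 4 groups of rats (x axis). Each point is 1 array, and bars give the mean and SD of a group. Orm1, Saal1 and Hp show no overlap between exposed and control arrays on either day, while Cp and Lbp overlap on both.

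Orm1 encodes orosomucoid 1 (alpha-1-acid glycoprotein), a plasma lipocalin that binds basic and neutral ligands and dampens inflammation. Its probe lies at chr5:80326525-80326584 (rn4), and its sequence is shown because it carries the largest difference of the 10 genes:
Orm1 probe: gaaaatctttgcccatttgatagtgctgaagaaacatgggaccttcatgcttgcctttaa
Control signals on D0 were 4.77 at the lowest, 5.80 at the median and 6.76 at the highest. The 5 exposed arrays of D0 gave 10.22, 9.64, 9.73, 7.71 and 9.43. All exposed values stood above all control values, and replicate 4 was by far the lowest of them. The log2 FC was 3.56 (SE 0.56), an 11.8-fold difference, and 3.97 without replicate 4. On D28 control signals ran from 2.37 through a median of 5.41 to 6.53, and exposed signals from 7.80 through 8.82 to 9.07. Again the groups did not overlap, with a log2 FC of 3.62 (SE 0.53). The lowest control value, 2.37, was that of replicate 6, the array on which Orm1 was not well above background, and without that array the log2 FC was 3.09. With normexp background correction the log2 FC of Orm1 was smaller, 2.49 on D0 and 2.05 on D28.

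Saal1 is the name the array files give to a probe at chr1:97248442-97248501 (rn4), printed on 2 spots. The RefSeq gene table holds Saal1 both as the symbol of the gene that the array calls LOC691143 and as another name of Saa3, serum amyloid A3. The array has its own probes for LOC691143 on one side of the Saal1 probe and probes for Saa4 on the other. The probe is thus likely to measure Saa3, an acute-phase apolipoprotein of high-density lipoprotein that is also made outside the liver, but its transcript accession was not in that table. The first 30 of its 60 bases are shown, so that the probe can be traced:
Saal1 probe: ttcctaaaacctggatccctaaacatccca
Signals of the D0 controls had a lowest value of 9.50, a median of 10.25 and a highest value of 10.84. Exposed D0 arrays gave 13.93, 13.23, 13.29, 11.45 and 13.08, again with replicate 4 lowest and no overlap. The log2 FC was 2.78 (SE 0.36), or 6.88-fold, and 3.17 without replicate 4. D28 controls lay between 8.82 and 9.98 (median 9.28), and D28 exposed arrays between 11.06 and 12.84 (median 11.66), for a log2 FC of 2.40 (SE 0.34), or 5.29-fold. The brighter of the LOC691143 probes did not share this pattern: its group means were 7.68 and 7.71 in control and exposed lungs on D0, and 7.70 and 7.80 on D28.

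Lcn2 encodes lipocalin 2, which withholds iron from bacteria by binding their siderophores and is stored in neutrophil granules and made by airway epithelium. Its probe lies at chr3:11511592-11511651 (rn4), and the first 30 of its 60 bases, shown because Lcn2 is among the genes the choice rests on, are:
Lcn2 probe: caatgcattgacaactgaacagacggtgag
D0 controls ranged from 9.14 to 9.83 with a median of 9.56. The exposed D0 signals were 11.52, 11.57, 11.35, 10.40 and 11.12, all above the controls. This gave a log2 FC of 1.65 (SE 0.28), or 3.14-fold. On D28 the picture was different: controls ranged from 9.06 to 10.13 (median 9.79) and exposed arrays from 9.91 to 11.67 (median 10.21), with 3 of 6 exposed arrays above all controls. The log2 FC of 0.73 (SE 0.26) did not reach the adjusted p threshold. It fell to 0.48 without exposed replicate 4, the array with the highest value. The paper, which applied a batch correction, describes Lcn2 as over-expressed on D28 in elderly rats only.

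Hp encodes haptoglobin, which binds free haemoglobin. The probe is at chr19:39443156-39443215 (rn4) and is shown because Hp, beside Orm1 and Saal1, passed both thresholds on both days:
Hp probe: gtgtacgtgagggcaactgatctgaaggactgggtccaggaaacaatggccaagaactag
Its D0 controls lay close together, with 13 at the lowest, 13.26 at the median and 13.37 at the highest. Exposed D0 arrays read 14.46, 14.34, 14.18, 13.67 and 14.09, and D28 exposed arrays ran from 13.73 through a median of 13.90 to 14.49, against D28 controls of 12.86 to 13.39 (median 13.27). No exposed array overlapped the controls of its day. Its log2 FC was 0.91 (SE 0.15) on D0 and 0.76 (SE 0.14) on D28, smaller than those of Orm1 and Saal1 in size, but with the least spread between control arrays of the 4 genes described so far.

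Hpx and Cp belong to the same group of haem and metal carriers. Hpx encodes hemopexin, which carries free haem to the liver, and its probe is at chr1:163319663-163319722. Hpx control signals on D0 were 5.54 to 6.22 (median 5.99) and exposed signals were 6.89, 7.23, 7.34, 6.17 and 6.63, so 4 of 5 exposed arrays stood above all controls and replicate 4 fell among them. The log2 FC was 0.90 (SE 0.21) on D0. On D28 it was 0.75 (SE 0.20), with 5 of 6 exposed arrays above all controls, and it did not reach the adjusted p threshold. Without control D28 replicate 6 the D28 value was 0.64. With normexp background correction the D0 value was 0.50 and it did not pass.

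Cp encodes ceruloplasmin, the copper-carrying ferroxidase of plasma, and was read by 2 probes (chr2:105129736-105130152, a span longer than the probe, and chr2:105148774-105148833). D0 controls were 9.92 to 10.35 (median 10.05), and exposed arrays were 10.35, 10.37, 10.27, 10.56 and 10.13. The groups overlapped on both days, and the log2 FC was 0.23 (SE 0.11) on D0 and 0.10 (SE 0.11) on D28. The separate probes gave 0.28 and 0.19 on D0, so neither of them showed a difference of the size seen in Hp.

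Lbp encodes the lipopolysaccharide-binding protein, which hands bacterial lipopolysaccharide to CD14, and its probe lies at chr3:149043196-149043255. Control signals of D0 were 8.94 to 9.48 (median 9.27), and the exposed signals 9.84, 9.55, 9.61, 9.28 and 9.60. Thus 4 of 5 exposed arrays were above all controls, with replicate 4 once more inside the control range. The log2 FC was 0.34 (SE 0.16) on D0 and 0.28 (SE 0.15) on D28, where 1 of 6 exposed arrays was above all controls.

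Itih4, Serpina3n and A2m act on proteases or belong to families that do. Itih4 (chr16:6334720-6334779) encodes a heavy chain of the inter-alpha-trypsin inhibitor family. Its D0 controls were tightly grouped between 7.69 and 8.0 (median 7.78), and the exposed D0 arrays read 8.72, 8.72, 8.83, 9.13 and 8.18. All exposed arrays lay above the controls, here with replicate 4 as the highest, and the log2 FC was 0.91 (SE 0.17). On D28 the exposed arrays ran from 7.71 to 8.90 with a median of 7.92, close to the control median of 7.88. The D28 log2 FC of 0.19 (SE 0.16) was 0.02 without exposed replicate 4, the array with 8.90.

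Serpina3n encodes a serine protease inhibitor of the antichymotrypsin family. D0 controls were 6.33 to 7.15 (median 6.91) and exposed arrays 7.71, 7.31, 7.70, 8.40 and 7.76, with no overlap. The log2 FC was 0.95 (SE 0.25) on D0 and 0.45 (SE 0.24) on D28, where it was 0.25 without exposed replicate 4. Its 2 probes differed in size: the one at chr6:128469197-128469256 gave 1.41 on D0 and 0.62 on D28, and the one at chr6:128470465-128470524, which was designed on another transcript record, gave 0.50 and 0.28. On D0 the call was kept in 14 of the 23 fits that left out 1 array. It was lost without any one of control D0 replicates 1 to 5 or exposed D0 replicates 1, 3, 4 and 5, with log2 FC from 0.80 to 0.98.

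A2m encodes alpha-2-macroglobulin, which traps proteases of all classes and is a major acute-phase protein in rats. The D0 controls were 5.38 to 5.87 (median 5.60). Exposed D0 arrays gave 6.87, 6.88, 7.26, 8.85 and 5.92, the widest spread of the 10 genes, with an SD of 1.07 against 0.17 in the controls. The lowest, replicate 5, was just above the highest control, and the highest was replicate 4. The log2 FC was 1.56 (SE 0.34), or 2.95-fold, and 1.14 without replicate 4 and 0.95 with normexp correction. Both probes (chr4:158152488-158152951 and chr4:158153349-158153408) gave similar values, 1.48 and 1.64. D28 controls were 5.54 to 6.62 (median 6.29) and exposed arrays 5.94 to 7.14 (median 6.75), with a log2 FC of 0.48 (SE 0.32).

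**Figure D2:**
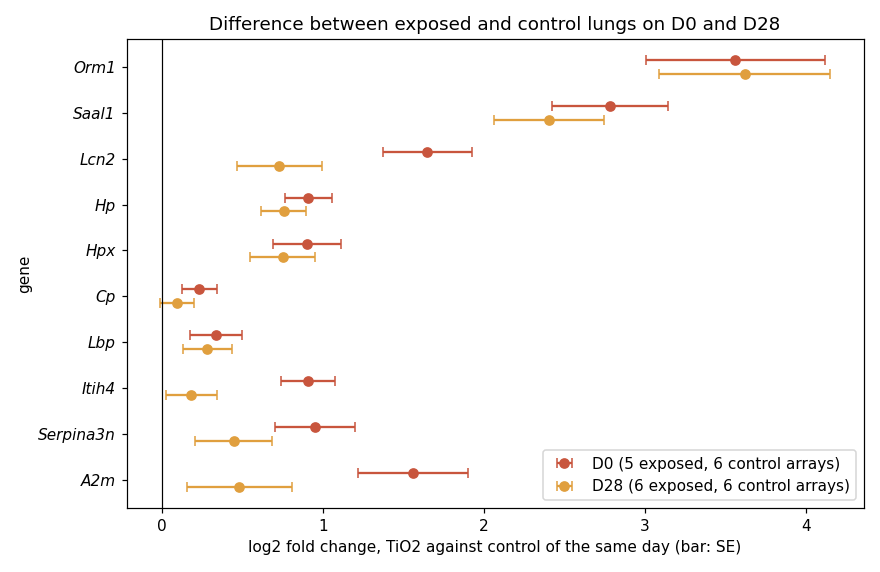
Log2 FC of exposed against control lungs (x axis) for the 10 genes (y axis) on D0 and D28, with bars for the SE. Orm1 and Saal1 stand far to the right on both days, and Lcn2, Itih4 and A2m lie further right on D0 than on D28.

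Whether the exposure difference changed between D0 and D28 was asked for the 7 genes not named when the set was chosen. None passed the thresholds (limma, adjusted p of 0.867 or higher for all 7), where 0.0304% of all genes did. At an unadjusted p below 0.05 there were 2 of 7. These were Itih4, with a difference of -0.72 (SE 0.23, adjusted p = 0.867), and A2m, with -1.08 (SE 0.47, adjusted p = 1). Serpina3n gave -0.51 (SE 0.34), and the other 4 lay between -0.15 and -0.05. For Orm1, Saal1 and Lcn2, given without a test, the differences were 0.06 (SE 0.77), -0.38 (SE 0.49) and -0.92 (SE 0.38). The difference for Orm1 turned to -0.48 without control D28 replicate 6 and to -0.35 without exposed D0 replicate 4. Its sign was kept in 23 of 32 alternatives. The difference for A2m was -0.66 without exposed D0 replicate 4.

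Control lungs of D28 were compared with those of D0 to see how the genes moved over 28 days without TiO2. None of the 10 passed both thresholds (limma), against 0.608% of all genes, and 1 of 10 had an unadjusted p below 0.05. That gene was Saal1, lower on D28 by a log2 FC of -0.86 (SE 0.34, adjusted p = 0.27). The largest difference in the other direction was that of A2m, 0.61 (SE 0.32, adjusted p = 0.427). Orm1 gave -0.71 (SE 0.53, adjusted p = 0.611) and -0.17 without control D28 replicate 6. The other 7 were between -0.16 (Lbp) and 0.18 (Cp). The exposed groups of both days were set against separate controls, so these shifts enter the comparison of days. The choice of Orm1, Saal1 and Lcn2 set exposed lungs against these same control arrays, so nothing is read from their p here.

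Single arrays did not show 1 common profile. Exposed D0 replicate 4 had the lowest exposed value of its day in 6 genes (Orm1, Saal1, Lcn2, Hp, Hpx and Lbp) and the highest in the other 4 (Cp, Itih4, Serpina3n and A2m). Against the control mean, its Orm1 was 1.93 higher on the log2 scale, where the other exposed D0 arrays were 3.65 to 4.43 higher. Its A2m was 3.25 higher, where the others were 0.32 to 1.67 higher. Exposed D28 replicate 4 had the highest value of its day in 5 genes (Saal1, Lcn2, Hp, Itih4 and Serpina3n). It stood 1.97 above the control mean in Lcn2 and 1.01 in Itih4, where the others were at most 0.95 and 0.23 above. Among the D28 controls, replicate 6 had the lowest value in Orm1, Saal1, Lcn2, Hp, Hpx and Lbp. Exposed D0 replicate 4 also had 69.5% of spots well above background, the lowest share of the 23 arrays. Its highest correlation with another array was 0.982, and that of exposed D28 replicate 4 was 0.976. Over all arrays this value ran from 0.975 to 0.989. Whether the rat or the array set these profiles was not tested.

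**Figure D3:**
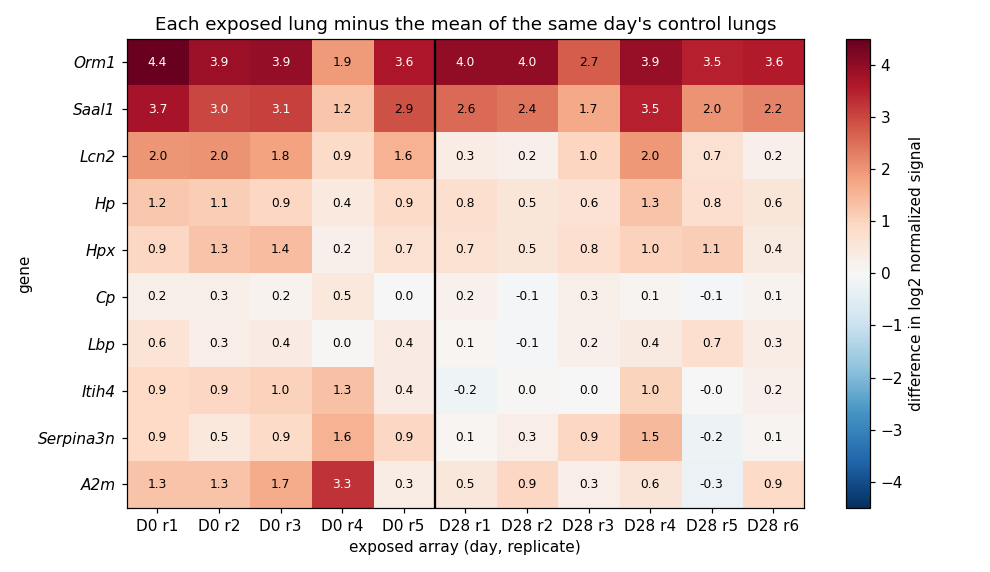
Difference in log2 normalized signal (colour and number) between each exposed array (x axis, day and replicate r) and the mean of the control arrays of the same day, for the 10 genes (y axis). Among the exposed D0 arrays, replicate 4 has the lowest Orm1 (1.9) and the highest A2m (3.3), and D28 replicate 4 stands out in Lcn2 (2.0) and Itih4 (1.0).

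Exposed D0 replicate 4 was the only exposed D0 array of its slide, as were replicates 1 and 3 of theirs. Within the 4 slides that held both exposed and control arrays of D0, the Orm1 difference ran from 1.94 to 4.51 and that of Saal1 from 1.13 to 3.68. In both genes the lowest value was from the slide of exposed D0 replicate 4. The Lcn2 difference ran from 0.78 to 2.21, that of Hp from 0.41 to 1.26 and that of Itih4 from 0.69 to 1.23, all above 0 in 4 of 4 slides. Within the 3 slides usable on D28, the ranges were 2.54 to 6.70 in Orm1, 2.16 to 2.93 in Saal1, 0.72 to 0.85 in Lcn2 and 0.57 to 0.97 in Hp. Itih4 ran from -0.12 to 0.70 there, above 0 in 2 of 3 slides. Cp crossed 0 on both days, from -0.04 to 0.58 on D0 and from -0.13 to 0.20 on D28, and the lowest D0 values of Hpx and Lbp were 0.0088 and 0.0075. The Orm1 value of 6.70 came from the slide with control D28 replicate 6. With the slide as a block the log2 FC was 3.50 (SE 0.56) on D0 and 3.73 (SE 0.56) on D28 for Orm1, and 2.72 (SE 0.32) and 2.55 (SE 0.32) for Saal1.

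The 250 bases before the transcription start were read from RefSeq promoters (GRCr8, a build other than that of the probes) for 7 of the 10 genes, with Saa3 for the probe called Saal1. Those of Orm1, Saa3 and Lcn2 are shown because these genes had the largest differences on D0. Capitals mark letters that match, on either strand, TTNNGNAA (C/EBP), TTCNNNGAA (STAT), CTGGGAA (type II IL-6 element), GGGA followed after 4 bases by CC (NF-kB) or ACANNNTGT (glucocorticoid receptor), and matches may overlap. Orm1 is read from the plus strand, and Saa3 and Lcn2 from the minus strand:
Orm1, chr5:81788259-81788508: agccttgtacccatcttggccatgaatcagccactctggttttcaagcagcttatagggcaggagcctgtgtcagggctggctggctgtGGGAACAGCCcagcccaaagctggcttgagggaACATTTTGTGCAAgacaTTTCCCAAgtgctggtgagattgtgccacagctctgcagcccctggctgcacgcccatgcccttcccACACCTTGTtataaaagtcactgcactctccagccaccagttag
Saa3, chr1:106358431-106358680: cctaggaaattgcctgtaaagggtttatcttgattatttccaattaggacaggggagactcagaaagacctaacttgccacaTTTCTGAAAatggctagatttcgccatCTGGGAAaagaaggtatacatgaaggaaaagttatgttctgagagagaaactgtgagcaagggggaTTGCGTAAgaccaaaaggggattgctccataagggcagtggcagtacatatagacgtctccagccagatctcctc
Lcn2, chr3:36081781-36082030: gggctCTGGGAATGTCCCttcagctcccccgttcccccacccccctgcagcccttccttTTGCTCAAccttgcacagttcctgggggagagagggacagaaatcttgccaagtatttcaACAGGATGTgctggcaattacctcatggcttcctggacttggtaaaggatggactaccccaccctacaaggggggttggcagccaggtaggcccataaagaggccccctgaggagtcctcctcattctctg
The C/EBP letters were present in 7 of 7 windows and in 37.2% of 33465 RefSeq windows of this length. The IL-6 element was in 4 of 7 (Saa3, Lcn2, Itih4 and Serpina3n; 9.56% of all), NF-kB letters in 3 (Orm1, Lcn2 and Serpina3n; 16.4%), glucocorticoid receptor letters in the same 3 (5.81%) and STAT letters in 2 (Itih4 and Serpina3n; 7.67%). A match of letters is not a bound site.

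Genes whose signal followed the 3 leading genes most closely over the 23 arrays, outside the 10, are given with Pearson's r as a description. The arrays come from 4 groups, so differences between groups set most of these values. Both Orm1 and Saal1 were followed most closely by Chia, an acidic chitinase of lung epithelium and macrophages (r = 0.95 for both), and then by Kng1, which encodes kininogen 1 (r = 0.94 and 0.93). Next came Slc26a4, the anion exchanger pendrin, for Orm1 (r = 0.93) and P2ry2, a receptor for extracellular nucleotides, for Saal1 (r = 0.93). For Lcn2 they were Zbtb48 (r = 0.95), Ly6i (r = 0.94) and Slc26a4 (r = 0.92). Chia was higher in exposed lungs by a log2 FC of 1.54 on D0 and 1.43 on D28, and Slc26a4 by 2.25 and 1.61.

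Other acute-phase genes were drawn up as a list of 24, of which 23 were measured. On D0, 7 of them rose and 1 fell, and on D28 6 rose, with list medians of 0.47 and 0.34. Over all genes, 1.1% rose and 0.7% fell on D0, and 0.487% rose and 0.269% fell on D28, which is the background for this and the lists that follow. The lists were drawn up with earlier results of these arrays known, so their counts are given as a description. On D0 the largest changes were those of Kng1 (log2 FC 1.26, SE 0.24, adjusted p = 0.0039), C4bpa, a regulator of complement (1.06, SE 0.16, adjusted p = 0.00071), and C9, a pore-forming complement protein (1.02, SE 0.18, adjusted p = 0.0024). Hamp, which encodes the iron hormone hepcidin, fell by 1.01 (SE 0.23, adjusted p = 0.018), a call that was lost without exposed D0 replicate 4 or 5. On D28 Kng1 (1.31, adjusted p = 0.0048), the long pentraxin Ptx3 (1.03, adjusted p = 0.011) and the second kininogen Kng2 (1.00, adjusted p = 0.0082) rose, all by limma. C3 and Cfb, of the complement pathway, rose on both days, by 0.84 and 0.73 on D0 and 0.72 and 0.64 on D28. The D0 count includes Ptx3, whose call was kept in 14 of 23 fits that left out 1 array and was lost with the replicate number as a block. The D28 call of Cfb was lost with the slide as a block and without control D28 replicate 4 or exposed D28 replicate 6, and that of Kng1 with the brightest probe per gene. Only 2 of the list, C3 and Kng1, passed on D28 when the arrays of the other day were left out of the fit. Crp, the classical human marker, was well above background on 1 array of 23. The negative acute-phase genes, which fall in the liver during inflammation, had 8 of 11 measured and none past the thresholds on either day (limma, 2 and 3 genes at an unadjusted p below 0.05, list medians 0.02 and 0.07). Among them the largest values were those of Ttr, the thyroxine carrier transthyretin (-0.75 on D0 and -0.87 on D28, adjusted p = 0.19 and 0.12), and of the iron carrier Tf (0.29 and 0.39). Ttr was well above background on 15 arrays, Alb on 5, Apoa1 on no array and Mug1 on few. No change can be read for Alb, Apoa1 or Mug1.

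Cytokines that induce acute-phase genes in hepatocytes were next. Of 13 measured, 2 rose on D0: Tnf (log2 FC 1.06, SE 0.22, adjusted p = 0.0089) and the interleukin 6 family member Osm (0.59, SE 0.11, adjusted p = 0.0036, limma). The Osm call was lost in 6 of 23 fits that left out 1 array, without control D0 replicate 1, 4, 5 or 6 or exposed D0 replicate 3 or 5. It was also lost with normexp correction, in the deposited table and with the replicate number as a block. None passed on D28 (limma, 0 genes at an unadjusted p below 0.05), where Tnf was at 0.26 and Osm at 0.21, and where the largest value was that of Csf3, a neutrophil growth factor (-0.53, adjusted p = 0.70). Il6 was well above background on 1 array of 23, Il22 on no array, and Il17a and Il17f on few, so no change can be read for these genes. Il1b, at 0.01 on D0 and 0.10 on D28, was measured on every array.

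Receptors and signalling genes of these cytokines numbered 14, and none passed on either day (limma, 0 genes at an unadjusted p below 0.05 on both days). Il22ra1 was well above background on no array. The larger values among the measured were those of Lifr, the receptor for leukaemia inhibitory factor (-0.21 on D0), and Il6st, the shared receptor chain gp130 (-0.27 on D28). Socs3, which STAT3 induces, was at 0.14 and 0.16. Among 14 measured transcription factors 1 rose on D0: Bcl3, a nuclear cofactor of NF-kB (0.65, SE 0.14, adjusted p = 0.0096, limma). On D28 none passed (limma, 1 gene at an unadjusted p below 0.05), with Bcl3 at 0.37 and Cebpa at 0.27. The call for Bcl3 was lost without exposed D0 replicate 1, with normexp correction and in the deposited table.

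Partners that bind or take up the 10 proteins, or handle the iron and haem they carry, gave no gene past the thresholds among 12 (limma, 4 and 3 genes at an unadjusted p below 0.05 on D0 and D28). The largest value was that of Hmox1, the haem-degrading oxygenase, at 0.64 (adjusted p = 0.13) on D0 and 0.61 (adjusted p = 0.17) on D28. Cd14 was at 0.50 on D0 and the endocytic receptor Lrp2 at 0.33 on D28. Hmox1 passed on D0 with normexp correction, in the deposited table and with the slide as a block, and on D28 without control D28 replicate 1, while Lrp2 passed on D0 without exposed D0 replicate 5. Of the gene families to which the 10 belong, 12 of 19 listed relatives were measured and 1 rose. This was Itih1, another heavy chain of the inter-alpha-trypsin inhibitor family, by 1.96 (SE 0.28, adjusted p = 0.00039) on D0 and 1.40 (SE 0.27, adjusted p = 0.0092) on D28 by limma. It passed both thresholds on D28, where Itih4 did not. The remaining relatives had log2 FC on both sides of 0, with list medians of -0.09 and 0.04. Among them Itih3, well above background on all arrays, was at 0.63 on D0 and 0.61 on D28 (adjusted p = 0.089 and 0.12, limma). Several others, Ambp, Cpamd8, Pzp, Mug1 and Bpi, were not well above background on most arrays.

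**Figure D4:**
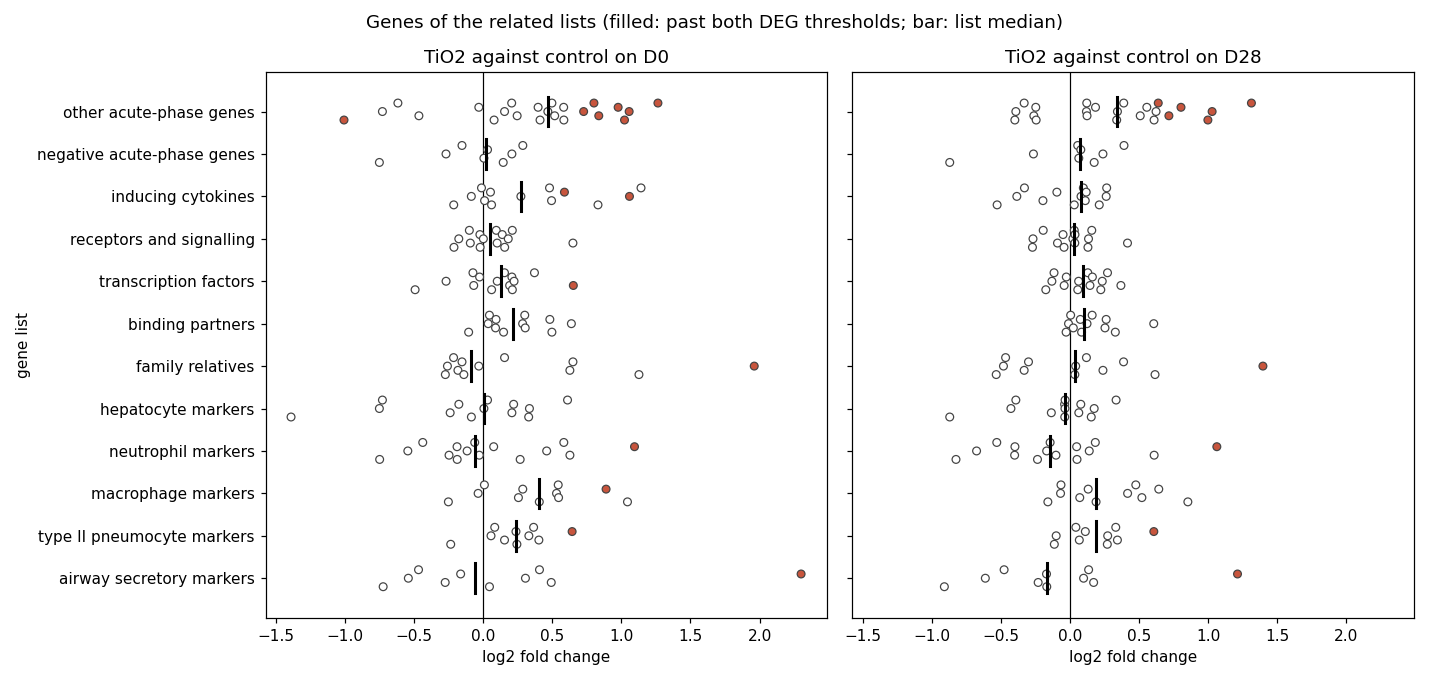
Log2 FC of exposed against control lungs (x axis) on D0 (left) and D28 (right) for each measured gene of 12 lists (y axis). Filled points passed both DEG thresholds and bars give list medians. The other acute-phase genes hold 7 filled points above 0 and 1 below on D0 and 6 above on D28, while receptors and negative acute-phase genes hold none.

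Markers of cells that could supply these mRNAs were read from the same arrays. Few hepatocyte markers were above background: of 13 genes, 4 (Apoa1, Apoh, Tat and Cps1) were well above background on no array, albumin on 5 of 23 and 3 (Cyp2e1, Apoc3 and Ahsg) on all. None of the 13 passed on D0 or D28 (limma, 2 and 1 genes at an unadjusted p below 0.05). G6pc had the largest value on D0 (-1.39, adjusted p = 0.19) but was well above background on 5 arrays. The mean over the list ran from 3.68 to 4.10 in D0 controls and from 3.46 to 3.86 in exposed lungs. On D28 it ran from 3.47 to 4.17 and from 3.46 to 4.01, so the ranges overlapped on both days. Cyp2e1 fell between the controls of D0 and D28 by 1.02 (SE 0.18, adjusted p = 0.0052, limma).

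Neutrophil markers, of which 15 of 17 were tested and 11 of 17 were well above background on all arrays, had a list mean of 7.67 to 8.28 in D0 controls and 7.39 to 8.19 in D0 exposed lungs. On D28 it was 7.12 to 8.12 and 7.59 to 7.83. Cd177, a surface protein of neutrophils, rose on D0 (1.1, SE 0.27, adjusted p = 0.028) and D28 (1.06, SE 0.26, adjusted p = 0.043, limma). Its D28 call held in 5 of the 23 fits that left out 1 array, and its D0 call was lost without control D0 replicate 4 or 6 or exposed D0 replicate 1, 2, 3 or 5. Both calls were lost with the replicate number as a block and with only the groups compared. Of the 2 other brightest markers, S100a9 was at 0.63 and 0.61 and S100a8 at 0.27 and 0.05 on D0 and D28. On each day 6 of 15 genes had a log2 FC above 0. The lowest on both days was that of Ngp, a granule protein, at -0.75 and -0.83 (adjusted p = 0.37 and 0.30), which was well above background on 10 of 23 arrays. Prtn3, the granule protease proteinase 3, was at -0.54 and -0.53 (adjusted p = 0.34 and 0.37). The neutrophil markers Elane, Ctsg and Ltf were well above background on no array. By cell counts, the paper reports a higher percentage of neutrophils in lavage fluid of exposed than of control elderly rats on both days. That fluid came from the left lobe, whereas the RNA came from the accessory lobe.

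Macrophage markers had list means that did not overlap on D0, 8.88 to 9.18 in controls and 9.23 to 9.60 in exposed lungs, and on D28 ranged from 8.71 to 9.25 and from 9.05 to 9.41. Of 11, 1 rose on D0, the sialic acid receptor Siglec1 (0.89, SE 0.16, adjusted p = 0.0026, limma), and none on D28 (5 genes at an unadjusted p below 0.05). There the largest value measured on all arrays was that of Itgax (0.64, adjusted p = 0.15). Marco, at 1.04 on D0 and part of the list mean, was well above background on 2 of 23 arrays. The brightest, Gpnmb, was at 0.54 on D0 and 0.48 on D28, and Pparg at -0.04 and -0.07. Cd68 was at 0.55 and 0.42 (adjusted p = 0.0029 and 0.029, limma) and missed only the FC threshold on both days.

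Type II pneumocyte markers also had list means without overlap on D0, 14.19 to 14.29 in controls and 14.34 to 14.63 in exposed lungs. On D28 they were 14.15 to 14.45 and 14.35 to 14.61. Here 1 of 10 genes rose, the membrane mucin Muc1, by 0.64 (SE 0.14, adjusted p = 0.01) on D0 and 0.61 (SE 0.13, adjusted p = 0.023) on D28 by limma. The D0 call was lost without exposed D0 replicate 1, and the D28 call without control D28 replicate 4 or 6 or exposed D28 replicate 4 or 6, with the slide or the replicate number as a block and with only the groups compared. The surfactant genes Sftpd, Sftpb and Sftpa1 were at 0.37, 0.08 and 0.40 on D0 and at 0.27, 0.04 and 0.33 on D28. Binding partners also had list means without overlap on D0, 10.80 to 10.95 in controls and 11.02 to 11.21 in exposed lungs. So did the other acute-phase genes on D28, with 8.49 to 8.87 and 8.92 to 9.21. How often lists of other genes would do so was not tested.

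Airway secretory markers ranged from 11.04 to 11.34 in D0 controls and 11.03 to 11.60 in exposed lungs, and on D28 from 10.87 to 11.27 and from 10.53 to 11.31. Among the 10 tested, Bpifb1, a secreted protein of airway mucosa from the same fold family as Lbp, rose by 2.30 (SE 0.28, adjusted p = 9.4e-05) on D0 and by 1.21 (SE 0.26, adjusted p = 0.025) on D28 by limma. The D28 call was lost without control D28 replicate 4 or 5 or exposed D28 replicate 6, with the replicate number as a block and with only the groups compared. The brightest markers, Scgb1a1, Scgb3a2 and Pigr, were at -0.16, 0.49 and 0.31 on D0 and at -0.17, 0.10 and 0.17 on D28. Other markers had lower values that did not pass. Bpifa1, a secreted airway protein related to Bpifb1, was at -0.72 and -0.91 (adjusted p = 0.61 and 0.41) and the secretoglobin Scgb3a1 at -0.47 and -0.61 (adjusted p = 0.31 and 0.13). The cytochrome P450 gene Cyp2f4 was at -0.54 and -0.17 (adjusted p = 0.085 and 0.79). The part that macrophages, type II pneumocytes, neutrophils or airway cells had in the differences of the 10 genes was not tested.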

How the data were processed

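The authors deposited the scanner software's output for each of 23 single-colour Agilent rat arrays, with intensity values per spot corrected for background within the array (processed signal), and a table of intensity values for all arrays that was quantile normalized. Per the file headers, 22 arrays were read with Agilent Feature Extraction version 11.0.1.1 and the remaining one with version 12.0.1.1, whose file supplied the gene names. Outlier and control spots were left out, and probes above the 95th percentile of 308 negative controls on at least 5 arrays were kept (40420 of 45598). Log2 processed signals were quantile normalized. Spots, then probes of a gene symbol, were averaged, and 49 genes with a missing value were dropped, leaving 23011. The methods name a batch correction without its terms, which was not applied, so calls here can differ from those of the paper. One limma (version 3.58.1, R 4.3.3) model with 4 group means and 19 residual degrees of freedom gave Benjamini-Hochberg adjusted p over all genes, and a gene was a DEG when its adjusted p was under 0.05 and its FC 1.5 or more.

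The 10 genes and the gene lists were chosen with earlier results of these data known. Genes named from a list were those past both thresholds, at most 4 by size of log2 FC, or the 2 largest where none passed, and for cell-type lists the 3 brightest. C3, Cfb, Ptx3 on D0, Crp, Il6, Il1b, Socs3, Itih3, Marco on D0, Ngp, Prtn3, Bpifa1, Scgb3a1, Cyp2f4 and list genes given only for their background level or for a lost call were named after their values were seen. One list gene that the naming rule selects is counted but not reported here. The number of arrays per group limits the precision. Alternatives were 75th percentile scaling, normexp correction (offset 50), the deposited table, no dim-probe filter or one on signals well above background, the brightest probe per gene, slide or replicate number as a block, arrays of the groups compared only, a variance trend with robust estimation, and each array left out. The fit was tested on simulated data. The highest correlation between any arrays was 0.989.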

Additional observations from a re-analysis of the deposited data

Results flagged for a closer look

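Single arrays stood far from the rest of their group in 2 of 40 comparisons of the 10 genes and in 3 of 48 comparisons of list means, where chance gives about 1 in 20. Exposed D28 replicate 4 was highest in Hp (14.49, with the other exposed D28 arrays at 13.97 or lower) and in Itih4 (8.90, with the others at 8.12 or lower), and its mean over the family relatives was 5.77. The hepatocyte marker mean of exposed D0 replicate 1 was low at 3.46, and the neutrophil marker mean of control D28 replicate 6 was low at 7.12. No difference between days passed the thresholds for any of the 10 genes or the listed genes.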

How the results depend on the processing

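The count of the 10 genes past both thresholds was 8 on D0 and 3 on D28. With 1 array left out it ranged from 6 to 8 on D0 and from 3 to 4 on D28, and under the other alternatives from 7 to 8 and from 2 to 4. Orm1, Saal1, Lcn2, Hp and Itih4 passed on D0 in all 33 alternatives, and Orm1 and Saal1 did so on D28. Because the choice of genes rested on the exposure difference in these same arrays, these counts only describe the fits. A2m on D0 and Hp on D28 were lost when the other day's arrays were left out, Hpx on D0 with normexp correction or without control D0 replicate 6 or exposed D0 replicate 2 or 3. Neither the control lungs of both days nor the difference between days gave a call among the 10 genes under any alternative run. Every log2 FC of exposed against control lungs kept its sign in the 10 genes. Orm1 was most affected by normexp correction, with values of 2.49 (D0) and 2.05 (D28). Its difference between days, given without a test, kept its sign in 23 of 32 alternatives. For Lbp, the difference between days was -0.05, ran from -0.15 to 0.051 with 1 array left out, and changed sign in 4 of these fits: 0.0044 without control D0 replicate 4, 0.012 without exposed D0 replicate 1, 0.051 without control D28 replicate 1 and 0.020 without exposed D28 replicate 2. With the replicate number as a block, which pairs samples by label alone (correlations of the deviations -0.23 to -0.12 on D0 and -0.17 to 0.46 on D28), the replicate block left 8 and 3 genes called, and over all genes 356 (D0) and 138 (D28), against 413 and 174 without it. Restricting the fit to the groups compared left 42 genes on D28, and normexp correction gave 221 on D0 and 94 on D28. The cause was not tested for any of these. Orm1 was not well above background on 1 array.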
